A study of Mus musculus with 8 samples.

Results

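The transcripts described here are the 200 that collected the most mRNA reads in the embryonic mouse forebrain while carrying an ordinary load of ribosomes for their mRNA. They were taken from the 14801 transcript IDs present in both deposited count tables. For each ID, counts per 1000000 (CPM, the share of the library total times 1000000) were averaged over the 4 footprint libraries and over the 4 mRNA libraries. IDs with a log2 ratio of mean footprint CPM to mean mRNA CPM from -1 to 1 were kept (9318 IDs), and the 200 with the highest mean mRNA CPM are the members. They are numbered by that level, so that the member of rank 1 has the highest. The libraries came from forebrains of E14.5 embryos that were wild type (WT) or had lost Elp3 conditionally, in the progenitors of the cortex (Elp3cKO), with 2 libraries per genotype for ribosome footprints and 2 for polyA-selected mRNA. The labels name neither the Cre driver nor the strain, and they do not say whether replicates were separate embryos, so p-values rest on differences between libraries that could be technical replicates. Whole forebrains were used, so cells outside the deletion are part of every sample.

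Elp3 carries the catalytic activity of Elongator, which modifies transfer RNAs at the wobble position and so acts on how fast some codons are decoded. A ribosome footprint is the short piece of mRNA that a translating ribosome shields from nuclease. The ratio of footprints to mRNA, called translational efficiency, is higher where more ribosomes sit on each mRNA. In growing tissue a small number of housekeeping genes, such as those of ribosomal proteins and the cytoskeleton, commonly supplies a large part of all mRNA. The tables give UCSC IDs without gene names. Of their 16365 IDs, 0 matched the name tables used here, so the function, position and sequence of the members, the level of Elp3, and markers of the tissue were not examined. At most 4 members are named by ID, and the others are given by rank.

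Total counts ranged from 4119478 to 10082980 in the footprint libraries and from 2059059 to 4823834 in the mRNA libraries. Every member was well covered. The lowest count of any member was 1006 in a footprint library and 839 in an mRNA library, and all 200 passed the filter on low counts in both assays.

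Mean mRNA levels declined steeply over the first ranks and then flattened. The member of rank 1 had 10024 CPM, the median member 721 CPM and the member of rank 200 had 482 CPM, against 479 CPM for the first ID outside. Mean footprint levels ran from 259 to 9230 CPM with a median of 656 CPM. The log2 ratio of footprints to mRNA had a median of -0.22 and quartiles of -0.59 and 0.32, and 72 of the 200 members had more footprint than mRNA CPM. The members nearest the limits of the ratio were at -0.998 and 0.994, and the nearest IDs outside, among those as abundant, were at -1.005 and 1.004. The ratio limits left out 97 IDs with more mRNA reads than the last member, 78 of them for a ratio below -1 and 19 for a ratio above 1. These values are those that chose the members. The region of the transcript in which reads were counted is not given in the sources used here, and the ratios, and with them the choice of members, depend on it. CPM is not corrected for transcript length, so the ranks order transcripts by the reads they collected and not by their number of molecules.

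**Figure D1:**
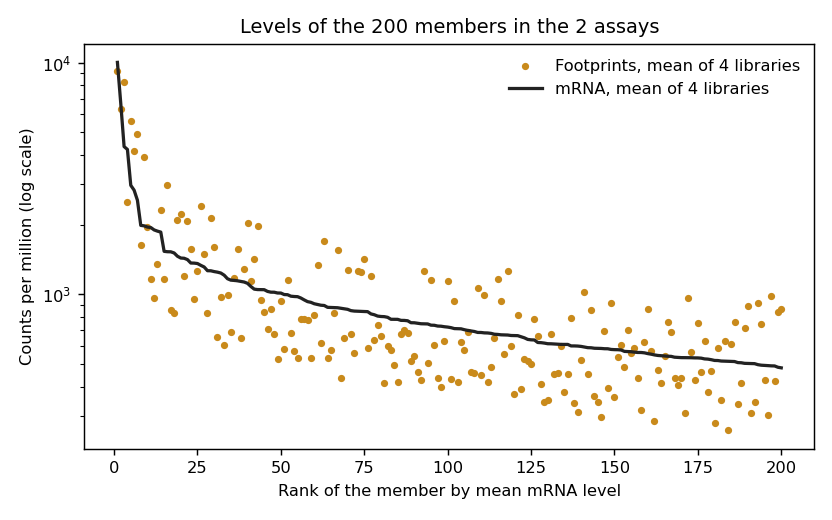
Mean level of each member in counts per 1000000 (log scale) against its rank by mRNA level, with mRNA as a line and footprints as points. mRNA levels drop from 10024 at rank 1 to 482 at rank 200, and footprint levels scatter around them within the 2-fold limits of the selection.

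The choice by mRNA level and the choice by footprint level overlapped, as the ratio limits in part require, so the following counts only describe the members. Of the 200 members, 147 were also among the 200 highest in footprints of the same ratio range, and 113 were among the 200 highest in footprints of all shared IDs. Ranked by the WT mRNA libraries alone, 192 members would have been chosen, and by the Elp3cKO mRNA libraries alone 196.

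The levels of the members differed little between libraries of 1 group, though by more than counting error. The SD over members of the log2 difference between replicates was 0.17 for WT footprints, 0.11 for Elp3cKO footprints, 0.12 for WT mRNA and 0.14 for Elp3cKO mRNA. Counting error alone would give between 0.026 and 0.044. In these pairs 22, 2, 5 and 12 of the 200 members differed by more than 1.2-fold, and 0 by more than 1.5-fold. WT footprint replicate 2 stood farthest from the other genotype, with SDs of 0.31 and 0.29 against the Elp3cKO footprint libraries, where WT replicate 1 had 0.22 and 0.21. Between mRNA libraries of different genotype the SD was between 0.19 and 0.22. The coefficient of variation fitted by edgeR had a median of 8.59% among members and 19.4% among all tested transcripts for footprints, and of 6.81% and 13.6% for mRNA. The next 200 IDs by mRNA level in the same ratio range were close to the members, with 9.06% and 7.10%. So were the 97 IDs as abundant but outside the ratio limits, with 9.19% and 6.87%.

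The members took a large and nearly constant part of each library. In the footprint libraries they took 19.84% (replicate 1) and 19.81% (replicate 2) of all counts in WT, and 19.39% and 19.40% in Elp3cKO. Both WT values lay above both Elp3cKO values, and the exact 95% binomial intervals of the WT libraries (19.82% to 19.87% and 19.78% to 19.83%) lay above those of the Elp3cKO libraries (19.37% to 19.42% and 19.36% to 19.44%). Such intervals treat every read as a separate draw, so they leave out differences between libraries. Reads copied by PCR, if kept, are not separate molecules, and the intervals are then too narrow. In the mRNA libraries the order was opposite, with 18.95% and 19.12% in WT and 19.26% and 19.39% in Elp3cKO. The intervals of the 2 WT mRNA libraries did not overlap each other (18.92% to 18.99% and 19.07% to 19.16%), so in mRNA such a gap also arises within 1 genotype. In footprints the intervals of the 2 libraries of each genotype overlapped. The mean share in Elp3cKO was 0.428 percentage points lower than in WT for footprints, from 19.83% ± 0.0254 to 19.40% ± 0.00629 (SD, n = 2), and 0.289 points higher for mRNA, from 19.04% ± 0.118 to 19.32% ± 0.0941. Neither difference can pass a test over libraries, because the exact two-sided permutation p of 0.333 in each assay is the smallest that 2 against 2 libraries allow. In bulk tissue, fewer cells of a type and less RNA per cell cannot be told apart.

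**Figure D2:**
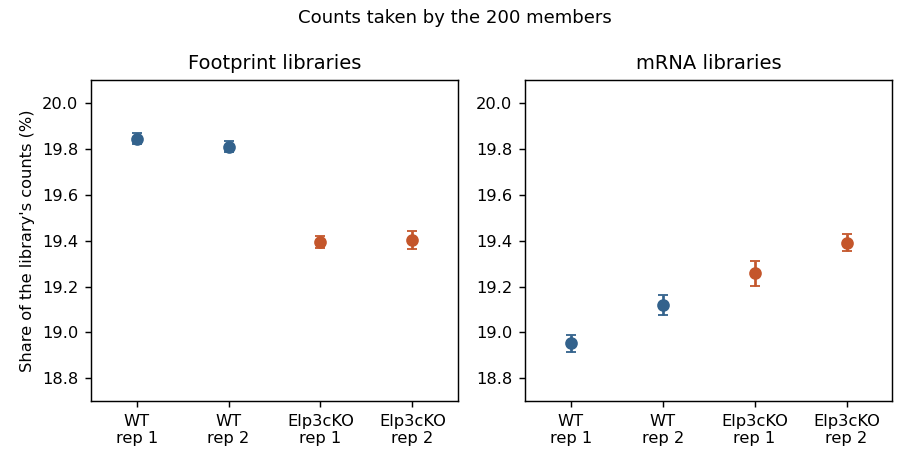
Share of each library's counts (%) taken by the 200 members, with exact 95% binomial intervals, for the 4 footprint libraries (left) and the 4 mRNA libraries (right). WT footprint libraries sit at 19.84% and 19.81%, above both Elp3cKO libraries, and WT mRNA libraries at 18.95% and 19.12%, below both. The axis does not start at 0.

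The lower footprint share lay in the upper 100 ranks. Ranks 1 to 100 took 14.1% ± 0.0464 of WT and 13.7% ± 0.00354 of Elp3cKO footprints, and the other 100 took 5.70% ± 0.0718 and 5.74% ± 0.00276. For mRNA the upper 100 ranks took 13.3% ± 0.124 and 13.4% ± 0.0279, and the lower 100 took 5.76% ± 0.00605 and 5.92% ± 0.0662. The next 200 IDs in the same ratio range took 7.27% ± 0.0413 and 7.40% ± 0.0346 of footprints and 7.56% ± 0.00562 and 7.60% ± 0.0851 of mRNA. The 97 IDs as abundant but outside the ratio limits took 5.87% ± 0.0770 and 5.64% ± 0.0546 of footprints. Of mRNA they took 8.22% ± 0.0159 and 7.82% ± 0.0829, so their share was lower in Elp3cKO in both assays. The footprint difference of the members was a balance of many gains and losses. In CPM of the whole library, 98 members were lower in Elp3cKO by 14235 in all and 102 were higher by 9955 in all. The members of ranks 2, 3 and 5 had the largest losses, of 1017, 1009 and 809 CPM, and the member of rank 1 had the largest gain, of 1088 CPM.

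The 5 members with the most reads moved by small amounts. Levels from here on are CPM of libraries scaled by TMM, which changed library sizes by less than 1%. The member of rank 1 had 9048 and 8345 footprint CPM in WT and 9771 and 9757 in Elp3cKO, and 9555 and 9673 mRNA CPM in WT and 10179 and 10680 in Elp3cKO. Its groups did not overlap in either assay, which held for many other members too. Here and below, such separation of 2 against 2 libraries is weak, with an exact two-sided permutation p of 0.333. The log2 changes (log2 of the ratio of Elp3cKO to WT) of 0.17 (SE 0.05) and 0.12 (SE 0.06) did not pass (adjusted p by edgeR = 0.181 and 0.353). The member of rank 2 had 6869 and 6790 footprint CPM in WT and 5649 and 5950 in Elp3cKO, a log2 change of -0.24 (SE 0.05, adjusted p by edgeR = 0.0512). Its mRNA, at 6985 and 7100 CPM in WT and 6279 and 6341 in Elp3cKO, had a log2 change of -0.16 (SE 0.06, adjusted p by edgeR = 0.196).

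The footprints of rank 2 were so close to the threshold that 8 of 13 other settings called them lower in Elp3cKO, among them DESeq2 (adjusted p = 0.016) and the scaling by DESeq2 size factors (adjusted p by edgeR = 0.045). Footprints of the members of ranks 3 and 5 had log2 changes of -0.18 (SE 0.06) and -0.21 (SE 0.05), with adjusted p by edgeR = 0.176 and 0.0952, while their mRNA had 0.02 (SE 0.07) and -0.03 (SE 0.07). These 2 mRNA values changed sign when 1 library was left out. In translational efficiency the members of ranks 3 and 5 had log2 changes of -0.20 (SE 0.08) and -0.17 (SE 0.08), which did not pass (adjusted p by edgeR = 0.915 and 0.928). The member of rank 4 had 0.17 (SE 0.07) in footprints and 0.13 (SE 0.07) in mRNA, with adjusted p by edgeR = 0.32 and 0.415.

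The first question of the design is which of these transcripts carried more or fewer footprints in Elp3cKO forebrains. Footprints of 6 members rose and those of 12 fell (edgeR quasi-likelihood test over 12691 transcripts, Benjamini-Hochberg adjusted p under 0.05), 9% of the 200, where 0.946% of all tested transcripts were called (0.402% as rises and 0.544% as falls). The members' estimates were also more precise: the median SE of the log2 change was 0.09 among members and 0.28 over all tested. In the next 200 IDs of the same ratio range, with a median SE of 0.11, 5 were called, and in the 97 IDs as abundant but outside the ratio limits 3 were called. None of the called changes exceeded 2-fold. The log2 changes of the 18 called members ran from 0.34 to 0.92 in size with a median of 0.48, where the 120 calls over all transcripts had a median size of 0.82. A smaller SE lets smaller changes pass, so these medians do not show that members changed less than other transcripts. The median log2 change was 0.01 over the members and 0.01 over all tested transcripts.

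How many footprint changes passed depended on single libraries. Without Elp3cKO footprint replicate 1, 0 members rose and 1 fell (background 0.261% called), and 42 had an unadjusted p under 0.05 (21%, against 10.1% of all tested). Without Elp3cKO replicate 2, 0 rose and 4 fell (background 0.267%), and 45 had an unadjusted p under 0.05 (22.5%, against 5.1%). Without WT replicate 1 the counts were 32 and 40 (background 7.09%), and without WT replicate 2 they were 7 and 19 (background 1.11%). DESeq2 called 16 rises and 21 falls in the full set (background 1.91%). All 18 calls had the same sign in each of these fits. In all 18 the groups did not overlap, so leaving out 1 library could hardly turn a sign, and this is no added support. Called members were spread over the ranks, with 4, 7, 4 and 3 in ranks 1 to 50, 51 to 100, 101 to 150 and 151 to 200.

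The second question is which members changed in mRNA level. The mRNA of 8 members rose and that of 8 fell (edgeR quasi-likelihood test over 11697 transcripts, adjusted p under 0.05), 8% of the 200, where 1.92% of all tested transcripts were called (0.915% as rises and 1.01% as falls). The log2 changes of the 16 called members ran from 0.32 to 0.56 in size with a median of 0.38, against a median size of 0.68 for the calls over all transcripts. Members had a median SE of 0.09 and all tested transcripts 0.23, so here too smaller changes could pass among members. Of the next 200 IDs in the ratio range 7 were called. Of the 97 abundant IDs outside the ratio limits 11 were called (11.3%), 1 as a rise and 10 as falls. The median log2 change was 0.02 over the members and about 0 over all tested transcripts (-0.000218).

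The mRNA counts moved with single libraries as well. They were 2 rises and 2 falls without WT mRNA replicate 1 (background 1.2% called), 4 and 3 without WT replicate 2 (2.12%), 15 and 17 without Elp3cKO replicate 1 (2.13%) and 7 and 6 without Elp3cKO replicate 2 (0.99%). A joint fit over the 8 libraries of both assays had 3 rises and 3 falls (0.751%). All 16 calls had the same sign in each of these fits. Their groups did not overlap in any of the 16, so here too a sign could hardly turn when 1 library was left out. The largest mRNA rise was that of the member of rank 111, from 534 and 571 CPM in WT to 788 and 835 CPM in Elp3cKO (log2 change 0.56, SE 0.09, adjusted p by edgeR = 0.000169). Its call held in all 13 other settings.

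Footprints and mRNA of the members tended to move the same way. Both passed in 7 members, 2 rises and 5 falls, which are 38.9% of the footprint calls and 43.8% of the mRNA calls, and all 7 had the same direction in both assays. All 18 footprint calls and 15 of the 16 mRNA calls had the same sign in the other assay. The same counts over the calls of all tested transcripts are not given here, so these describe the members and are not a trait particular to them. Over all 200 members 72.5% had the same sign in both assays, against 61.1% of the 11588 transcripts tested in both. Across the 200 members, Pearson's r between footprint and mRNA changes was 0.68 and Spearman's rho was 0.65; the members share their libraries and, as abundant transcripts, carry little counting error. Each set of calls was chosen on its own assay, so its size there is not comparable with its size in the other. Members with a footprint rise or fall had median mRNA log2 changes of 0.25 and -0.33, while members with an mRNA rise or fall had median footprint log2 changes of 0.16 and -0.42.

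**Figure D3:**
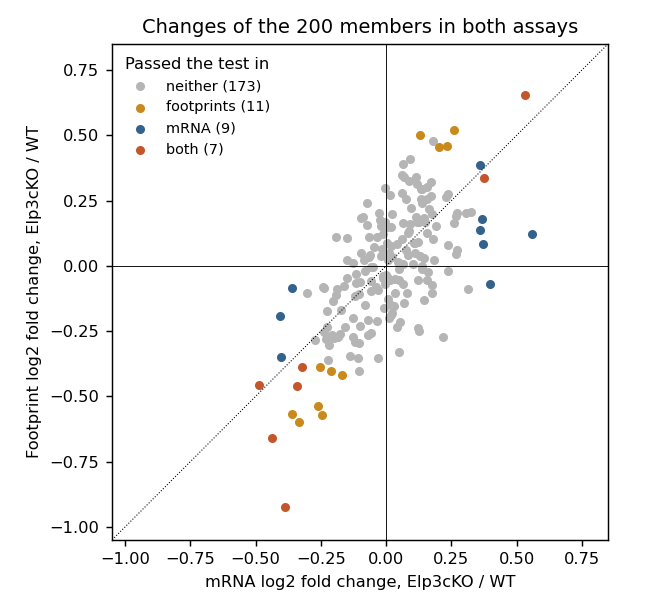
Footprint against mRNA log2 change (Elp3cKO over WT) of the 200 members, coloured by the assay in which each passed the test. The 7 members called in both assays lie in the lower left and upper right, and the dotted line marks equal change.

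By a rule set for members without names, 4 are given by ID. The strongest joint rise by mRNA p-value was that of uc008fop.1 (rank 173). Its footprints were at 474 and 404 CPM in WT and at 685 and 697 CPM in Elp3cKO, and its mRNA at 406 and 466 CPM in WT and at 619 and 640 CPM in Elp3cKO. In both assays each Elp3cKO library was above both WT libraries. The log2 change was 0.66 (SE 0.10, adjusted p by edgeR = 0.00342) in footprints and 0.53 (SE 0.10, adjusted p by edgeR = 0.000815) in mRNA. Leaving out Elp3cKO footprint replicate 1 or 2 ended the footprint call (adjusted p by edgeR = 0.0704 and 0.102), and leaving out WT mRNA replicate 1 ended the mRNA call (0.0713).

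The strongest joint fall by mRNA p-value was that of uc008pgu.2 (rank 54). Its mRNA was at 1175 and 1110 CPM in WT and at 856 and 779 CPM in Elp3cKO, a log2 change of -0.49 (SE 0.08, adjusted p by edgeR = 0.000582) that was called in all 13 other settings. Its footprints were at 629 and 685 CPM in WT and at 443 and 514 CPM in Elp3cKO, a log2 change of -0.46 (SE 0.10, adjusted p by edgeR = 0.0447). The groups did not overlap in either assay. The footprint call ended with upper-quartile scaling (adjusted p by edgeR = 0.0571) and without Elp3cKO footprint replicate 1 or 2 (0.408 and 0.184).

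The largest footprint fall among the members was that of uc007nmf.2 (rank 113), from 602 and 673 CPM in WT to 338 and 334 CPM in Elp3cKO. Its log2 change was -0.92 (SE 0.10, adjusted p by edgeR = 0.000171), to 0.527 of the WT level, and it was called in all 13 other settings. Its mRNA was at 752 and 788 CPM in WT and at 620 and 558 CPM in Elp3cKO (log2 change -0.39, SE 0.09, adjusted p by edgeR = 0.0142). The mRNA call ended in 4 of 13 settings: without WT mRNA replicate 1, WT replicate 2 or Elp3cKO replicate 2 (adjusted p by edgeR = 0.0715, 0.122 and 0.114), and in the joint fit of both assays (0.0565). The fourth, uc008ziq.3 (rank 104), with the smallest footprint p among the other footprint rises, rose in footprints from 546 and 475 to 712 and 753 CPM (log2 change 0.52, SE 0.10, adjusted p by edgeR = 0.0175). That call ended without Elp3cKO footprint replicate 1 or 2 (0.138 and 0.373). Its mRNA was at 686 and 607 CPM in WT and at 743 and 805 CPM in Elp3cKO, which did not pass (log2 change 0.26, SE 0.09, adjusted p by edgeR = 0.146).

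**Figure D4:**
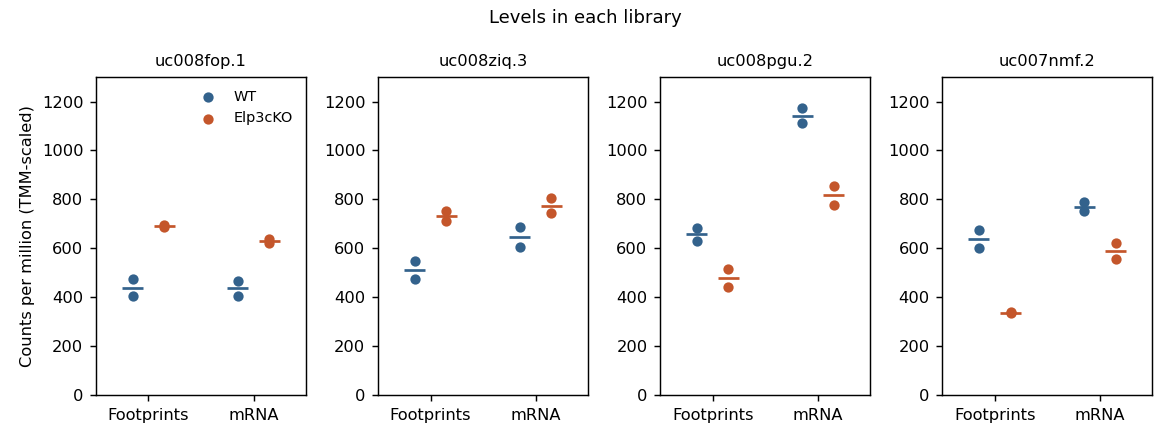
Level of the 4 members given by ID in each library (TMM-scaled counts per 1000000), with WT in blue, Elp3cKO in red and a bar at the mean of 2 libraries. The footprints of uc007nmf.2 go from 602 and 673 in WT to 338 and 334 in Elp3cKO, and in each panel the genotypes do not overlap.

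Among the most abundant members, the member of rank 10 rose in both assays. Its footprints went from 1743 and 1703 to 2208 and 2147 CPM (log2 change 0.34, SE 0.07, adjusted p by edgeR = 0.0309) and its mRNA from 1650 and 1745 to 2300 and 2110 CPM (0.38, SE 0.08, adjusted p by edgeR = 0.00353). The member of rank 27 fell in both. Its footprints went from 1718 and 1744 to 1272 and 1245 CPM (log2 change -0.46, SE 0.07, adjusted p by edgeR = 0.00455) and its mRNA from 1390 and 1550 to 1148 and 1167 CPM (-0.34, SE 0.08, adjusted p by edgeR = 0.0151). For both members the footprint call ended without Elp3cKO footprint replicate 1 or 2. The mRNA call ended for rank 10 without WT mRNA replicate 1 (adjusted p by edgeR = 0.109), and for rank 27 without WT mRNA replicate 2 (0.247).

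The third question is whether the number of footprints per mRNA differed between the genotypes. Translational efficiency rose in 0 and fell in 0 of the 200 members (edgeR quasi-likelihood test of the interaction of genotype and assay, adjusted p under 0.05), where 0.0173% of the 11588 transcripts tested were called. At an unadjusted p under 0.05 there were 8 higher and 17 lower members, 12.5% of the 200, where 5.27% of all tested were. Such a p was found for 16 of the next 200 IDs in the ratio range (8%). It was found for 12 of the 97 abundant IDs outside the ratio limits (12.4%). DESeq2 and limma voom also called 0 rises and 0 falls among the members. The lowest unadjusted p-values belonged to uc007nmf.2, with a log2 change of -0.53 (SE 0.13, adjusted p by edgeR = 0.868), and to the members of ranks 149, 141 and 111, with -0.49, -0.47 and -0.43 (SE 0.13 each). Without WT footprint replicate 1, uc007nmf.2 was called (log2 change -0.61, adjusted p by edgeR = 0.0448), with 0.361% of all transcripts called in that fit.

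None of these efficiency values passed with all libraries, and the levels behind the other 3 are given as a description. In the member of rank 111 the mRNA rose, as given above, while its footprints were at 1025 and 873 CPM in WT and at 1067 and 996 CPM in Elp3cKO, and overlapped. In the member of rank 141 the mRNA rose from 531 and 489 to 722 and 627 CPM (adjusted p by edgeR = 0.0165), while its footprints, at 1014 and 1082 CPM in WT and at 940 and 1055 CPM in Elp3cKO, overlapped. The mRNA call of rank 141 ended without WT mRNA replicate 1 or 2 or Elp3cKO replicate 1 and in the joint fit of both assays (adjusted p by edgeR from 0.0528 to 0.157). In the member of rank 149 the footprints were at 947 and 1063 CPM in WT and at 845 and 819 CPM in Elp3cKO, and the mRNA at 555 and 512 CPM and at 666 and 581 CPM, so the groups did not overlap in either assay and stood in opposite orders. Neither assay was called for rank 149. Groups of other members, such as those of ranks 9, 26 and 95, also stood apart in opposite orders, so this is not particular to rank 149. The ranks 149, 141 and 111 were singled out after their values were seen.

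For most members the 95% intervals allowed changes of less than 1.5-fold only, as judged from libraries that could be technical replicates. The 95% interval of the log2 change lay within 1.5-fold either way for 179 members in footprints (89.5%, against 26.1% of all tested transcripts), for 194 in mRNA (97%, against 38.1%) and for 182 in efficiency (91%, against 15.9%). Within 1.2-fold either way lay 46 members in footprints (23%, against 1.18%), 74 in mRNA (37%, against 2.49%) and 9 in efficiency (4.5%, against 0.121%). These intervals are for single transcripts and are not adjusted for their number. The estimates of 4 members in footprints, and of 0 members in mRNA and in efficiency, exceeded 1.5-fold, and none of the 200 exceeded 2-fold in any of these comparisons. The middle 80% of log2 changes ran from -0.30 to 0.28 in footprints, from -0.23 to 0.24 in mRNA and from -0.24 to 0.23 in efficiency. The next 200 IDs in the ratio range were nearly as closely bounded at 1.5-fold, with 177, 193 and 176. Scaling works within each assay, so these values are relative to the other transcripts of the library.

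**Figure D5:**
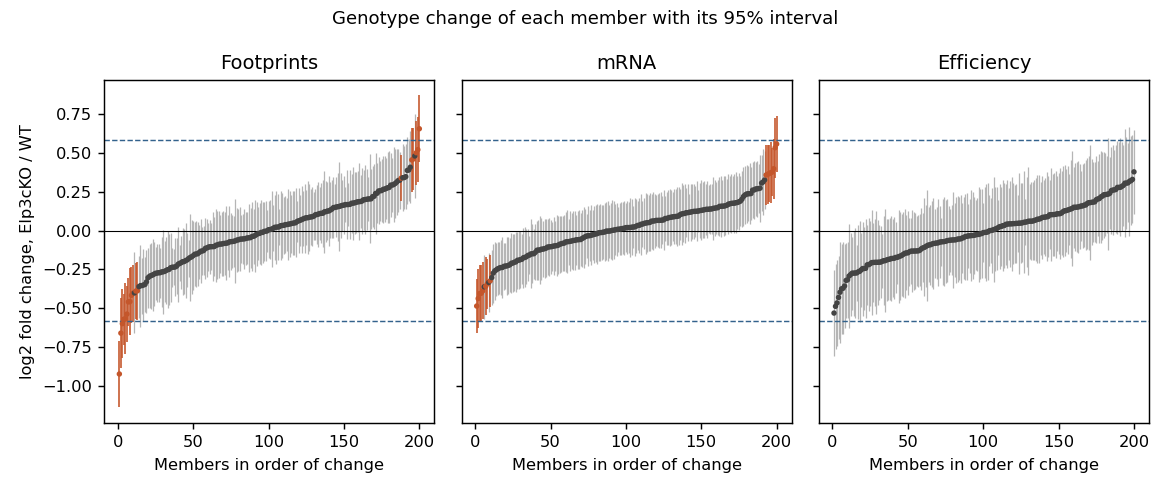
Log2 fold change (Elp3cKO over WT) of each of the 200 members with its 95% interval, in order of size, for footprints, mRNA and translational efficiency. Members that passed the test are in red, dashed lines mark 1.5-fold either way, and the intervals of 179, 194 and 182 members lie between the lines.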

How the data were processed

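The authors deposited raw read counts per UCSC ID, per the file headers, with 16177 IDs for footprints and 14989 for mRNA. Tools named by the submitters' processing notes are CASAVA 1.8 and Bowtie 1.0.0, with the build mm10. How reads were assigned to transcripts (tool, counted region, strand) and whether PCR copies were removed is not given in the sources used here, so reads of overlapping or similar genes are uncertain. Groups came from the sample titles. The members, comparisons and named-member rule were chosen with earlier results of these data known. That rule takes, for each direction, the member with the smallest mRNA p among those called in both assays, and then the member not yet taken with the smallest footprint p among all those called in footprints. Gene lists could not be tested without names.

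Counts were tested in R 4.3.3 with edgeR 4.0.16 (filterByExpr, minimum count 10, TMM within each assay, quasi-likelihood test). SE is the log2 fold change over the root of F, and 95% intervals use the fit's t quantile. Scripts were tested on simulated data. Alternatives were other scalings and filters, DESeq2 1.42.0, limma 3.58.1 voom, 1 fit on all 8 libraries, a replicate block and leaving out each library.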

Additional observations from a re-analysis of the deposited data

How the results depend on the processing

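In footprints 6 members rose and 12 fell, in mRNA 8 and 8, and in efficiency 0 and 0, as reported. The share of all tested transcripts called in the same fit is in parentheses, against 0.946% in footprints and 1.92% in mRNA as reported. Footprint counts were 15 and 25 with every ID of at least 1 count (2.53%), 16 and 21 with DESeq2 (1.91%), 10 and 21 with limma voom (1.23%), and 13 and 16 in the joint fit of both assays (2.08%). The mRNA counts were 13 and 17 with limma voom (2.71%) and 3 and 3 in the joint fit (0.751%). Among the 100 most abundant members 3 footprint rises and 8 falls, and 1 mRNA rise and 5 falls, were called. The 200 most abundant IDs with no ratio limits had 4 footprint rises and 13 falls, and 3 mRNA rises and 16 falls. With any 1 library left out, footprint rises numbered 0 to 32 and falls 1 to 40, mRNA rises 2 to 15 and falls 2 to 17, and efficiency rises 0 and falls 0 to 1. Such fits assume that the lone library of a group varies as the other groups do. The share difference (Elp3cKO minus WT) was -0.462 percentage points for footprints and 0.126 for mRNA with the 100 most abundant members, and -0.446 to -0.410 and 0.206 to 0.372 without 1 library. Other scalings and a mean of at least 50 counts kept all counts within 1.5 times, and so did every alternative fit for the number of members bounded within 1.5-fold. The median log2 change of the members lay between -0.0379 and 0.0484 in these fits, with either sign in footprints and in efficiency. Without 1 library, the log2 change of uc008pgu.2 in efficiency (0.03 as reported) ran from -0.0852 to 0.141, that of rank 3 in mRNA from -0.0351 to 0.0886 and that of rank 5 in mRNA from -0.0632 to 0.00429, so their directions are not settled. For all of these differences the cause was not tested.

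Pairing by replicate number was checked by the correlation, between genotypes, of replicate 1 minus 2 (0.047 in footprints and 0.017 in mRNA over 11588 transcripts, and 0.161 and 0.077 over the 200 members). No label gives the numbers a meaning, and they were not used as pairs. With the replicate block, 16 members rose and 27 fell in footprints (3.02% of all tested called), 12 and 11 in mRNA (3.23%) and 0 and 0 in efficiency (0.0173%). Depth limits Elp3cKO mRNA replicate 1 most, where the lowest member had 839 counts.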
